A study of Mus musculus with 18 samples.

Results

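The miR-378 family comprised 5 mature mouse miRNAs: mmu-miR-378a-3p and mmu-miR-378a-5p, the arms of 1 hairpin, and mmu-miR-378b, mmu-miR-378c and mmu-miR-378d, copies made from other loci. They were taken by name, as 5 of the 1359 mature miRNAs listed over all tables. The family was chosen by its low normalized counts in mouse embryonic fibroblasts (MEF) that had lost miR-17~92, so that difference is given below as a description and was not tested. The miR-378a hairpin gene, Mir378a, lies at chr18:61397835-61397900 in RefSeq's placement on GRCm38.p6. By the GENCODE gene annotation it is on the minus strand, in intron 1 of Ppargc1b and on the same strand as that gene. All 5 members were listed in each of the 3 sets of libraries, beside 1204 listed miRNAs in the miR-17~92 MEF set, 1265 in the miR-290~295 MEF set and 756 in B cells. With a minimum mean of 10 normalized counts over a set's libraries, all 5 were kept in both MEF sets and 4 in B cells, where miR-378d was below it.

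Small RNAs of 18 libraries were sequenced, all labelled with the Eu-myc strain, mice in which Myc is driven by an immunoglobulin heavy-chain enhancer. The miR-17~92 cluster, an oncogenic polycistron, was deleted (d/d), overexpressed (OV) or floxed and intact (fl/fl) in MEF, with 3 libraries a group, and in splenic B cells, with 1 library a group. A separate set used d/d MEF only, with an overexpressed miR-290~295 cluster, which is typical of embryonic stem cells, or with an empty plasmid (Empty), again with 3 libraries each. The sources used here do not give how the cluster was deleted or overexpressed, nor whether replicates were separate cultures, so p-values measure only the spread between these libraries, which may be technical.

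MicroRNAs are short RNAs, cut from hairpin precursors, that pair with messenger RNAs through a seed near their 5′ end and lower their translation or stability. The miR-378a hairpin lies in an intron of Ppargc1b, which encodes a coactivator of nuclear receptors and of mitochondrial genes, and miR-378a is known from the oxidative metabolism of muscle, liver and fat. Its copies carry nearly the same mature sequence on other chromosomes, so 1 short read can fit several of the names.

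The copies lay elsewhere in the same RefSeq placement, with strands, host genes and nearest genes again from GENCODE. Mir378b lay at chr11:88352773-88352864 on the plus strand, in intron 11 of Msi2 but on the opposite strand. Mir378c lay at chr14:46954830-46954928 on the minus strand, in intron 1 of Samd4 and again on the opposite strand. Mir378d lay at chr10:126710282-126710391 on the minus strand, in no protein-coding gene, with Atp23 the nearest, 158036 bases away. None of the 3 copies thus had a protein-coding host gene on its own strand.

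The mature sequences are shown to let the copies be compared letter by letter, 5′ to 3′ from RefSeq's GRCm38.p6 table, which held 3 of the 5 members, with the seed (bases 2 to 8) in capitals.
miR-378b: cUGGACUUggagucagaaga
miR-378c: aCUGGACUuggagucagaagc
miR-378d: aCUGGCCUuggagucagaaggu
They were 20, 21 and 22 bases long. Aligned with miR-378b shifted by 1 base, miR-378b and miR-378c shared 19 of 20 bases and differed by A20C. MiR-378b and miR-378d shared 18 of 20 and differed by A5C and A20G, and miR-378c and miR-378d shared 19 of 21 and differed by A6C and C21G. Positions count from 1 at the 5′ end of the first-named miRNA, whose base comes first. The seeds of the 3 differed by position or by base, and 0 other mature miRNAs in the table had any of them. Both arms of miR-378a were missing from it, so the seeds were not compared with those of miR-378a-3p and miR-378a-5p.

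The hairpins are shown because the mature miRNA sits at another place in each precursor, with the mature miRNA in capitals.
Mir378b: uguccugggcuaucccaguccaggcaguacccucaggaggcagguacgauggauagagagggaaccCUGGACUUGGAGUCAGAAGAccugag
Mir378c: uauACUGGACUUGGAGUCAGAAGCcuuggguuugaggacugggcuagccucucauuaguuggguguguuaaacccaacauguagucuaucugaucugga
Mir378d: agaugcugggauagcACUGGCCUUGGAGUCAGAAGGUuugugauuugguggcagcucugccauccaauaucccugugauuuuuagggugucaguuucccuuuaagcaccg
The mature miRNA began at base 67 of the 92 of Mir378b, nearer its 3′ end, and at bases 4 of 99 and 16 of 110 in Mir378c and Mir378d, nearer their 5′ ends. The sources used here do not give how reads that fit more than 1 member were counted, so the 5 names may share reads and are not independent measurements.

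The listed miRNAs took 17191892 to 24920911 reads in each of the 9 libraries of the miR-17~92 MEF set, 43164128 to 58911475 in the other MEF set, and 10203586 to 10612256 in B cells. MiR-17-5p of the manipulated cluster followed the labels, at 37.2 to 53.0 normalized counts in d/d, 9879 to 13434 in OV and 3029 to 3704 in fl/fl MEF. The miR-290~295 members summed to 769474 to 902627 with that cluster and to 1580 to 2065 with Empty. In the same d/d MEF the 6 listed miR-17~92 members summed to 129 to 166 with miR-290~295 and to 648 to 972 with Empty, without overlap. The part of that difference in the results below was not tested. In B cells the 12 listed miR-17~92 members summed to 31767.5 in d/d, 4961770 in OV and 1256360 in fl/fl. All 8 fibroblast markers were listed in every set. They summed to 287842 to 306196 RPM (reads scaled to a library's total of listed reads) in d/d, 213634 to 224812 in OV and 237022 to 256537 in fl/fl MEF. On RPM these groups did not overlap. In normalized counts the d/d sums, at 4827290 to 5821350, overlapped the fl/fl sums, at 4623440 to 4884480. The OV sums, at 4128310 to 4261860, lay below both. The mean correlation of a library with the others of its group was 0.983 to 0.995, and OV4 was the lowest. Normalized counts are read counts divided by 1 size factor per library, and each set was normalized separately.

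All 5 members of the family were lower in d/d than in fl/fl MEF, by 5.29-fold to 8.10-fold, and the groups did not overlap for any of them. MiR-378a-3p, the most abundant member, had 4685, 4419 and 4988 normalized counts in DEL1 to DEL3 (d/d), against 30838, 29228 and 31753 in FL3 to FL5 (fl/fl). MiR-378a-5p, the other arm, had 8.53, 7.99 and 7.44 in d/d MEF, against 69.6, 59.6 and 69.4 in fl/fl MEF. The d/d values of this arm rest on 7 to 12 reads a library. MiR-378b, the rarest copy, had 68.2, 58.1 and 70.2 in d/d MEF, against 366, 318 and 367 in fl/fl MEF. MiR-378c had 635, 553 and 651 in d/d MEF, against 4925, 4760 and 5200 in fl/fl MEF. MiR-378d, the most abundant copy, had 1450, 1276 and 1507 in d/d MEF, against 8870, 8232 and 9579 in fl/fl MEF. Every d/d library was thus low for the arm, the opposite arm and each copy alike.

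**Figure D1:**
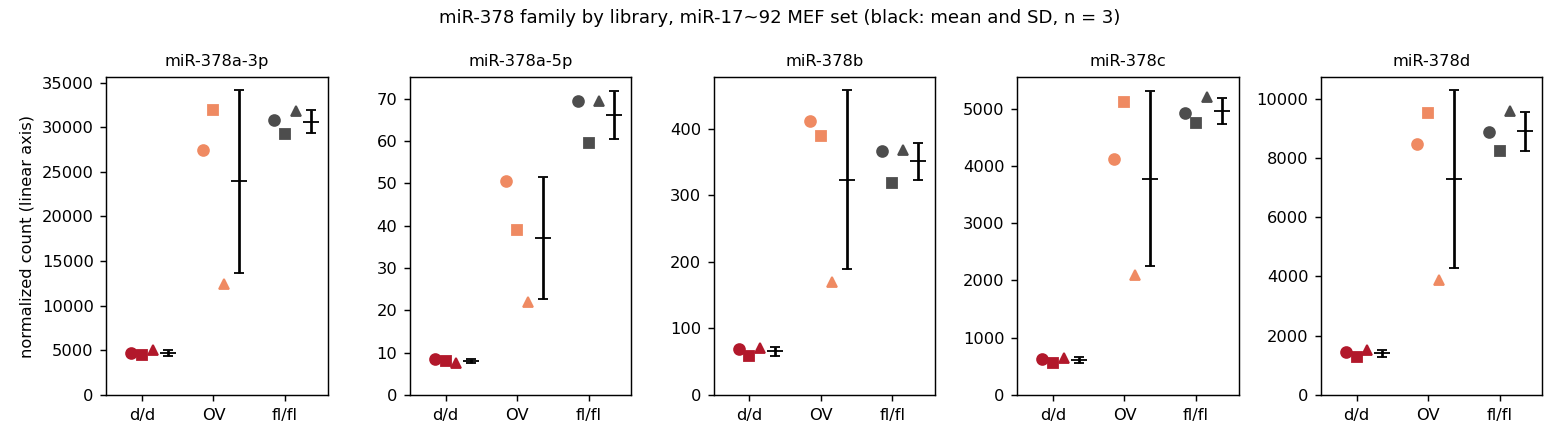
Normalized counts (linear axes) of the 5 miR-378 members in the 9 libraries of the miR-17~92 MEF set, 1 point per library, with black bars for the mean and SD of 3 libraries a group. The d/d points lie close together and below every fl/fl point in each panel, and the lowest OV point is the same library, OV4, throughout.

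In the fit to all kept miRNAs, the differences between d/d and fl/fl MEF on the log2(normalized count + 1) scale were −2.70 ± 0.28 for miR-378a-3p, −2.90 ± 0.30 for miR-378a-5p, −2.40 ± 0.30 for miR-378b, −3.02 ± 0.27 for miR-378c and −2.66 ± 0.28 for miR-378d (± SE, n = 3 each). As folds, miR-378a-3p was 6.52-fold lower, miR-378a-5p 7.46-fold, miR-378b 5.29-fold, miR-378c 8.10-fold and miR-378d 6.30-fold. Of the 662 kept miRNAs, 33.1% were lower and 34.9% higher without overlap, limma called 58.3% at an adjusted p of 0.05 (27.6% lower and 30.7% higher), and 17 lay below miR-378a-3p. Nothing is read from the members' count against that share, since the same contrast chose them. The median over all kept miRNAs was 0.02. In bulk RNA, fewer cells making a miRNA and less of it per cell cannot be told apart.

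The table scaled by spike-ins, RNAs added in known amount, gave −3.14 for miR-378a-3p and moved the median of all kept miRNAs to −0.39, which left miR-378a-3p at −2.74 relative to it, close to the −2.72 of the other table. Muscle markers were lower beside the family: 3 of 8 were listed, nearly all of the sum was miR-206-3p, and the sum was 18160 to 21651 normalized counts in d/d, 24147 to 30777 in OV and 35584 to 35879 in fl/fl MEF, while miR-133a, miR-133b, miR-208a and miR-208b were at 0 or not listed. The endothelial pair of miR-126a arms summed to 966 to 1067 in d/d, 1959 to 2150 in OV and 2034 to 2230 in fl/fl MEF. Haematopoietic markers, of which 5 of 7 were listed, summed to 4160 to 5815 in d/d, 5773 to 9716 in OV and 8055 to 8500 in fl/fl MEF, with miR-223-3p and miR-144-3p at 0 or not listed. Nearly all of the haematopoietic sum was miR-155-5p, at 4140 to 5784 in d/d, 5753 to 9693 in OV and 8008 to 8477 in fl/fl MEF. Liver markers, with 1 of 2 listed, summed to 371 to 567 in d/d MEF, 494 to 782 in OV MEF and 452 to 485 in fl/fl MEF. Their part in the result was not tested.

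In OV MEF the family lay nearer to fl/fl, with 1 library apart from the other two. MiR-378a-3p had 27405 normalized counts in OV1, 31914 in OV2 and 12424 in OV4. MiR-378a-5p had 50.6, 38.9 and 21.97 in these 3 libraries, and miR-378b had 412, 389 and 169. MiR-378c had 4127, 5113 and 2104, and miR-378d had 8455, 9510 and 3866. OV4 was the lowest OV library for every member, and still above every d/d library. Only miR-378a-5p was below fl/fl without overlap; 24.2% of all kept miRNAs were lower and 24.5% higher in OV without overlap, so 1 of 5 members is near that background.

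Because the contrast shares the fl/fl libraries with the one that chose the members, no test was made. Differences between OV and fl/fl MEF on the log2(normalized count + 1) scale were −0.47 ± 0.28 for miR-378a-3p, −0.89 ± 0.30 for miR-378a-5p, −0.22 ± 0.30 for miR-378b, −0.49 ± 0.27 for miR-378c and −0.39 ± 0.28 for miR-378d (± SE, n = 3 each). Without OV4 the difference was −0.05 for miR-378a-3p, −0.56 for miR-378a-5p, 0.19 for miR-378b, −0.11 for miR-378c and 0.01 for miR-378d, so the direction for miR-378b and miR-378d rests on that library.

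The miR-290~295 set offers d/d libraries that the choice of members did not use. MiR-378a-3p had 8320, 11139 and 9667 normalized counts with miR-290~295, against 9592, 14749 and 15049 in E1 to E3 with Empty. MiR-378a-5p had 14.8, 36.1 and 25.3 with miR-290~295, against 12.4, 23.9 and 35.9 with Empty, from 11 to 37 reads a library. These groups overlapped, and E1 was the lowest Empty library for both arms. MiR-378b had 85.9, 102 and 96.8 with miR-290~295, against 83.2, 159 and 145 with Empty. MiR-378c had 1018, 1297 and 1425 with miR-290~295, against 1218, 1757 and 1688 with Empty. MiR-378d had 1867, 2671 and 2133 with miR-290~295, against 2001, 2819 and 3380 with Empty. For each copy too the groups overlapped, and E1 was the lowest of the Empty libraries. Over all kept miRNAs, 26.1% were lower and 23.6% higher without overlap, against 0 of the 5 members.

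**Figure D2:**
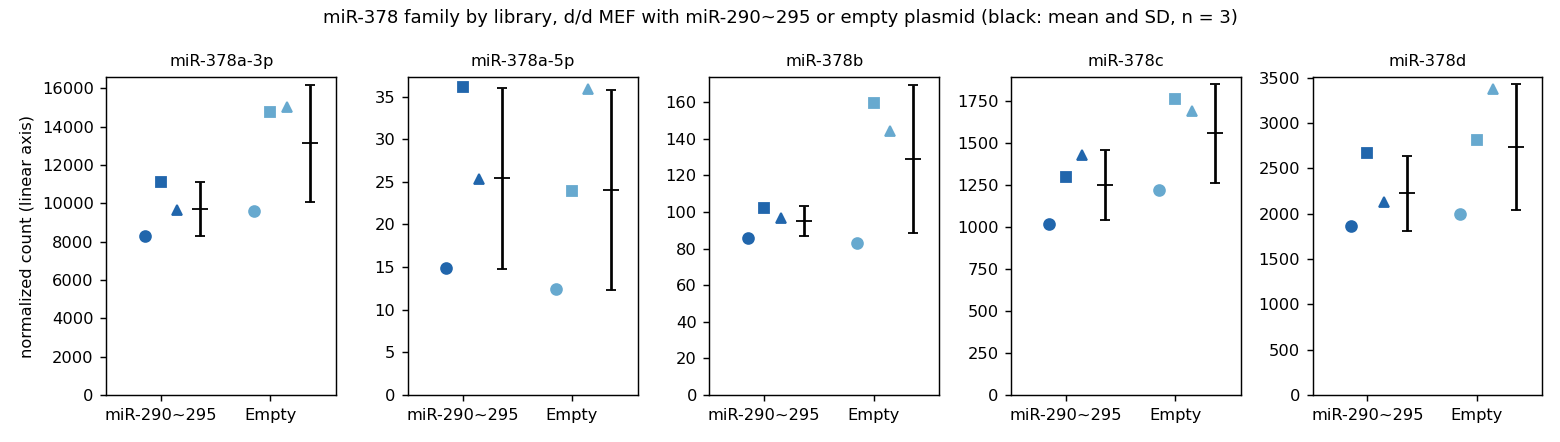
Normalized counts (linear axes) of the 5 members in the 6 d/d MEF libraries that carried miR-290~295 or an empty plasmid, 1 point per library, with black bars for the mean and SD of 3 libraries. The groups overlap in every panel, and the lowest Empty point is E1 each time.

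No member passed the test between miR-290~295 and Empty: 0 of 5 were called by limma, where 38.9% of the 840 kept miRNAs were (16.7% higher and 22.3% lower). The difference for miR-378a-3p was −0.42 ± 0.20 on the log2(normalized count + 1) scale, with an adjusted p of 0.130 and a 95% interval of −0.87 to 0.04. For miR-378a-5p it was 0.11 ± 0.46 (adjusted p = 0.871, interval −0.92 to 1.14), and for miR-378b −0.39 ± 0.27 (adjusted p = 0.288, interval −1.003 to 0.22). MiR-378c gave −0.31 ± 0.20 (adjusted p = 0.240, interval −0.77 to 0.14) and miR-378d −0.28 ± 0.22 (adjusted p = 0.348, interval −0.78 to 0.22), by limma with Benjamini-Hochberg adjustment. At an unadjusted p under 0.05 limma called 0 members, edgeR 1 (miR-378a-3p) and DESeq2 0, and with adjustment edgeR and DESeq2 called 0. The intervals reach −0.77 or lower for every member, so the test does not show that the groups are alike.

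The call depended on the scaling and on 1 library. With spike-in scaling, 4 of 5 members were called lower, all but miR-378a-5p, where 39.1% of all kept miRNAs were called lower. MiR-378a-3p then had 8013, 9560 and 7610 with miR-290~295, against 12518, 17981 and 16842 with Empty, groups that did not overlap, with a difference of −0.90 (limma adjusted p = 0.00182). The same table moved the median of all kept miRNAs to −0.46, against 0.02, so that relative to the median miR-378a-3p stood at −0.44 in both tables. Without E1, miR-378a-3p (−0.63, limma adjusted p = 0.00932) and miR-378b (−0.68, limma adjusted p = 0.0267) were called, where 25.0% of kept miRNAs were called lower. Muscle markers, here with 4 of 8 listed, summed to 44535 to 52496 with miR-290~295 and to 62612 to 83555 with Empty, again nearly all miR-206-3p. The endothelial pair summed to 2998 to 3350 with miR-290~295 and to 3701 to 4442 with Empty, without overlap either. The other marker sums overlapped. With miR-290~295 against Empty, fibroblast markers summed to 11411900 to 12584900 against 11033100 to 14688500. Haematopoietic markers, nearly all miR-155-5p, summed to 14096 to 18594 against 15304 to 20100. The liver marker ran higher, at 1579 to 2159 against 994 to 1810. The part of these markers in the result was not tested.

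**Figure D3:**
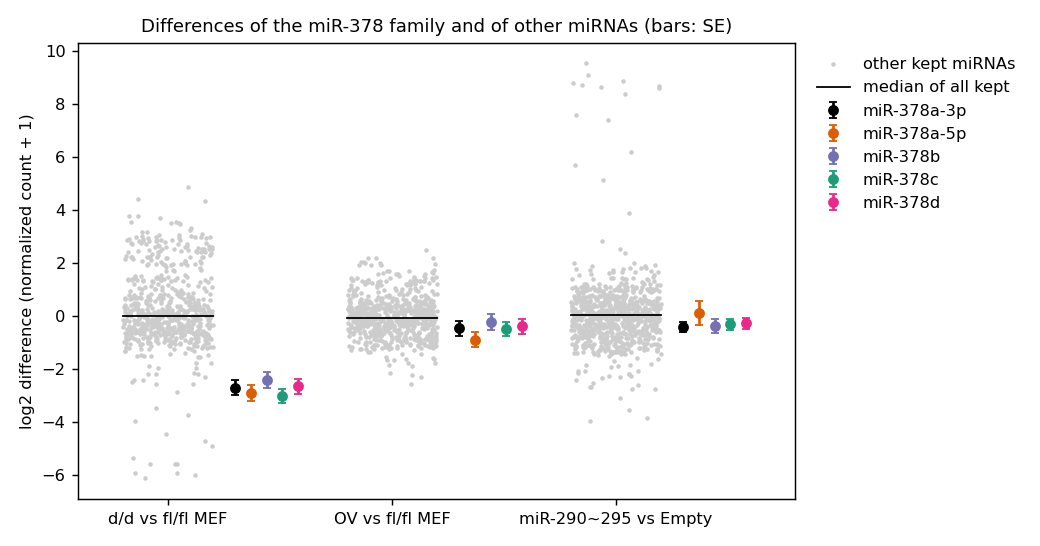
Differences on the log2(normalized count + 1) scale in 3 MEF comparisons, for the 5 members (coloured points, bars show the SE) and all other kept miRNAs (grey), with a black line at the median of all kept miRNAs. The members lie between −3.02 and −2.40 for d/d against fl/fl, between −0.89 and −0.22 for OV against fl/fl and between −0.42 and 0.11 for miR-290~295 against Empty.

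As a share of listed reads, the family held 0.0349 to 0.0408% in d/d MEF, 0.0984 to 0.235% in OV MEF and 0.213 to 0.241% in fl/fl MEF. In the other d/d MEF set it held 0.0239 to 0.0325% with miR-290~295 and 0.0266 to 0.0402% with Empty. B cells, with 1.46% in d/d, 1.05% in OV and 1.24% in fl/fl, held more than any MEF library. These shares set levels across tables that were normalized separately, and a change in other abundant miRNAs moves them too.

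MiR-378a-3p by itself was also highest in B cells. It reached 13567 RPM in d/d, 9700 in OV and 11457 in fl/fl B cells, and ranked 12 in d/d, 17 in OV and 16 in fl/fl among all listed miRNAs. In fl/fl MEF it had 1458 to 1628 RPM and ranked 50 to 55, and OV MEF, at 658 to 1600, overlapped them. The d/d MEF libraries followed at 244 to 279, then Empty at 198 to 298 and miR-290~295 at 176 to 238, the Empty range overlapping both others, with ranks between 116 and 143. All 9 d/d MEF libraries of both sets were below every OV and fl/fl MEF library, although the second set had no fl/fl libraries of its own. The d/d libraries of the first set are those that chose the members. How many other miRNAs separate in this way over both sets was not counted. Within the first set, 33.1% of kept miRNAs were lower in d/d than in fl/fl MEF without overlap on normalized counts.

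**Figure D4:**
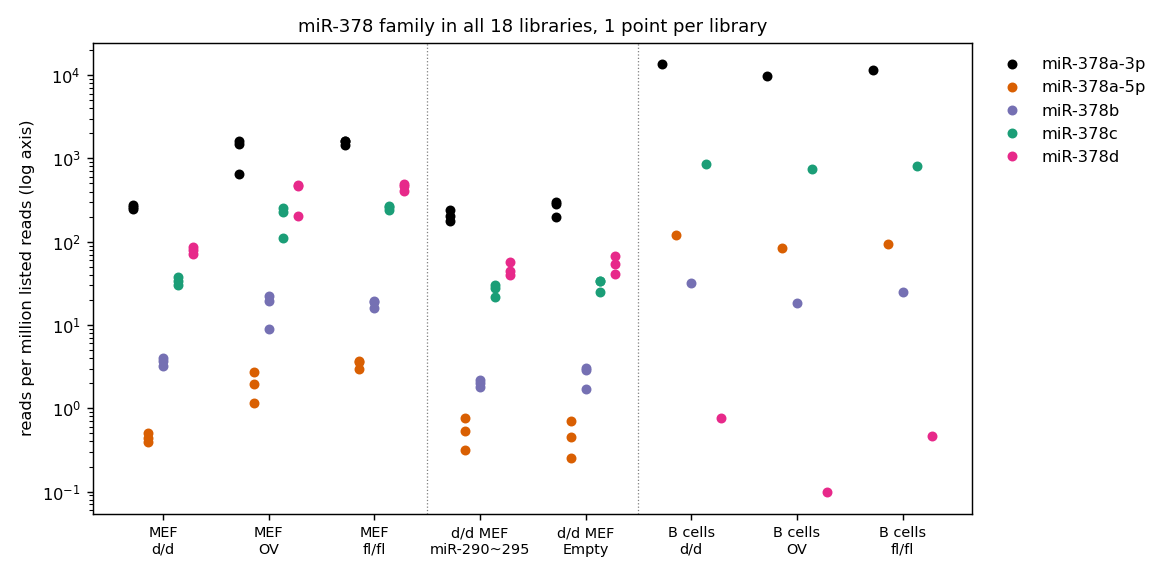
RPM, reads scaled to a library's total of listed reads (log axis), of the 5 members in all 18 libraries, 1 point per library, with dotted lines between sets that were normalized separately. MiR-378a-3p lies at 176 to 298 in d/d MEF, up to 1628 in OV and fl/fl MEF and 9700 to 13567 in B cells, whereas miR-378d drops below 1 in B cells.

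In B cells the levels of the abundant members lay close together across d/d, OV and fl/fl, and with 1 library a group there is no test. MiR-378a-3p had 113890 normalized counts in d/d, 132582 in OV and 114624 in fl/fl B cells, which is 0.994 times fl/fl in d/d (95% counting interval 0.986 to 1.00122) and 1.16 times in OV (1.15 to 1.17). MiR-378a-5p had 998 in d/d, 1137 in OV and 934 in fl/fl, or 1.07 times fl/fl in d/d (0.982 to 1.16) and 1.22 times in OV (1.11 to 1.34). The intervals are exact and cover counting error only, not the spread between cultures or animals. MiR-378b had 272 in d/d, 251 in OV and 246 in fl/fl B cells, or 1.10 times fl/fl in d/d (0.937 to 1.30) and 1.02 times in OV (0.839 to 1.23). MiR-378c had 7255 in d/d, 10165 in OV and 8141 in fl/fl, or 0.891 times fl/fl in d/d (0.865 to 0.918) and 1.25 times in OV (1.21 to 1.29). MiR-378d had only 8, 1 and 5 reads in d/d, OV and fl/fl, so its ratios to fl/fl of 1.35 in d/d (0.389 to 5.24) and 0.284 in OV (0.00601 to 2.54) rest on very few reads.

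None of the 4 kept members moved past 2-fold in B cells, where 34.2% of the 476 kept miRNAs did in d/d and 12.6% in OV against fl/fl. The direction of these small differences depends on the scaling: on RPM miR-378a-3p was 0.24 higher in d/d and −0.24 in OV on the log2 scale, against −0.01 and 0.21 on normalized counts. Fibroblast markers stood at 24693 to 56203 RPM in B cells, all 8 of them listed. Nearly all of that sum was miR-21a-5p, with 463477 of 471793 normalized counts in d/d, 335548 of 337521 in OV and 412388 of 414435 in fl/fl. Of the haematopoietic markers 6 of 7 were listed, and they summed to 10383 to 18024.5 RPM.

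Since the copies may share reads with miR-378a-3p, each member was also set against it within a library, as a percentage of its reads, which does not depend on the scaling. MiR-378d had 28.9 to 31.0% of the reads of miR-378a-3p in d/d, 29.8 to 31.1% in OV and 28.2 to 30.2% in fl/fl MEF. MiR-378c had 12.5 to 13.5% in d/d, 15.1 to 16.9% in OV and 16.0 to 16.4% in fl/fl MEF. MiR-378b had 1.31 to 1.46% in d/d, 1.22 to 1.502% in OV and 1.09 to 1.19% in fl/fl MEF. These shares differed far less between d/d and fl/fl MEF than the levels did. The log2 ratio to miR-378a-3p, of normalized counts + 1, differed between d/d and fl/fl MEF by 0.05 for miR-378d, −0.31 for miR-378c and 0.30 for miR-378b, and of these 3 copies only miR-378d had overlapping ranges.

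MiR-378a-5p, the rarer arm of the hairpin, had 0.149 to 0.182% of the reads of miR-378a-3p in d/d, 0.122 to 0.185% in OV and 0.204 to 0.226% in fl/fl MEF. Its log2 ratio of reads differed from fl/fl by −0.34 in d/d and by −0.45 in OV, and by −0.26 in OV without OV2. For this low arm the difference in d/d depended on the pseudocount, at −0.20 with 1 and 0.25 with 5, settings that were set against the reads after the data were seen. Both arms come from 1 hairpin, so this ratio compares how much of each arm was recovered.

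In the miR-290~295 set the log2 ratios of normalized counts + 1 could be tested, by a two-sided exact permutation test that cannot go below p = 0.1 with 3 libraries against 3. MiR-378d had 22.1 to 24.0% of the reads of miR-378a-3p with miR-290~295 and 19.1 to 22.5% with Empty (log2 difference 0.14, exact p = 0.3, adjusted over 4 ratios 0.6). MiR-378c had 11.6 to 14.7% with miR-290~295 and 11.2 to 12.7% with Empty (0.10, exact p = 0.5, adjusted 0.667), and miR-378b 0.916 to 1.03% with miR-290~295 and 0.868 to 1.08% with Empty (0.03, exact p = 0.8, adjusted 0.8). MiR-378a-5p had 0.178 to 0.324% with miR-290~295 and 0.129 to 0.239% with Empty (0.53, exact p = 0.2, adjusted 0.6). No ratio could have passed 0.05 in this design.

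B cells had another makeup of the family. MiR-378d had 0.00558% of the reads of miR-378a-3p in d/d, 0.00101% in OV and 0.00411% in fl/fl B cells, where no MEF library was below 19.1%. MiR-378b had 0.238% in d/d, 0.189% in OV and 0.215% in fl/fl B cells, and miR-378c had 6.37% in d/d, 7.67% in OV and 7.10% in fl/fl, both below all MEF libraries. MiR-378a-5p went the other way, at 0.876% in d/d, 0.858% in OV and 0.815% in fl/fl B cells, above all MEF libraries. The B-cell table was made apart from the MEF tables, so cell type and processing cannot be told apart. MiR-101c, a near copy of miR-101a-3p outside the family, had 1.63 to 2.99% of the reads of that miRNA in the MEF sets, against 0.251% in d/d, 0.138% in OV and 0.0785% in fl/fl B cells, from 4 to 5 reads a B-cell library, and the part of read assignment in either pattern was not tested.

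**Figure D5:**
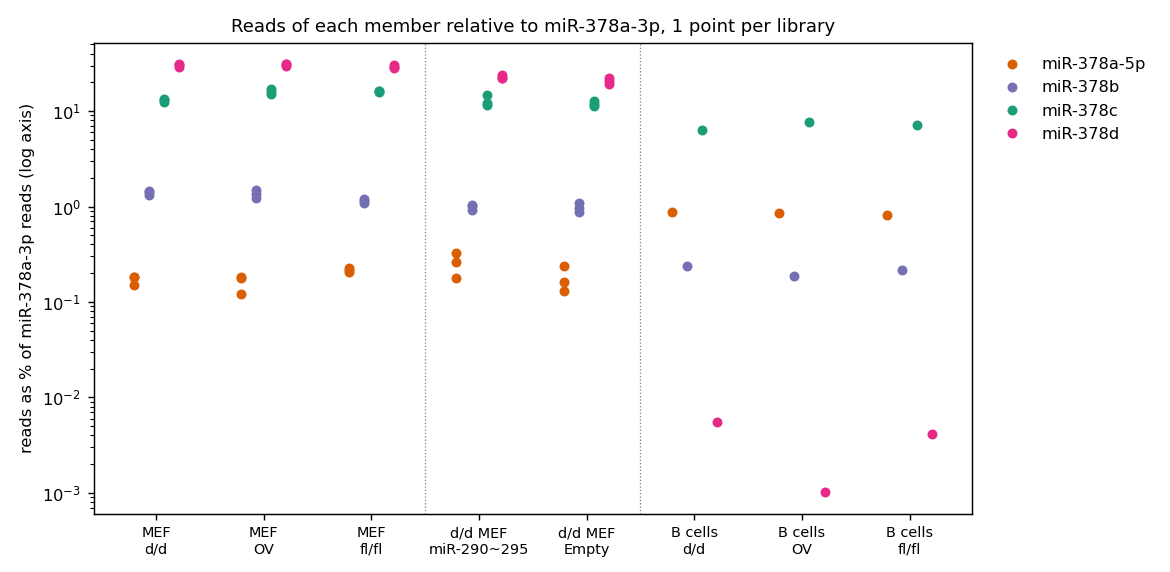
Reads of 4 members as a percentage of the miR-378a-3p reads of the same library (log axis), 1 point per library, with dotted lines between sets. MiR-378d holds 19.1 to 31.1% in MEF and at most 0.00558% in B cells, while miR-378a-5p is higher in B cells than in MEF.

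Several miRNAs outside the family had a pattern over the 9 libraries of the miR-17~92 MEF set like that of miR-378a-3p, measured by Pearson's r on log2(normalized count + 1). The members themselves had r of 0.980 (miR-378a-5p), 0.994 (miR-378b), 0.998 (miR-378c) and 0.999 (miR-378d), and they may share reads. Of the 657 other kept miRNAs, 31 had r above 0.9, and the highest were miR-101c (0.982), miR-101a-3p (0.981), miR-339-3p (0.979), miR-200c-3p (0.954) and miR-30d-5p (0.953). MiR-101a-3p, for example, averaged 1274 ± 206 normalized counts in d/d, 4085 ± 1302 in OV and 5772 ± 598 in fl/fl MEF (SD, n = 3 each). The lowest were miR-1983 (−0.936), miR-541-3p (−0.953) and miR-1964-3p (−0.954). These libraries fall into d/d and the rest, a split that each r spans, and no p is given.

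Over the 6 libraries of the miR-290~295 set the copies still followed miR-378a-3p, with r of 0.958 for miR-378b, 0.922 for miR-378c and 0.948 for miR-378d. The other arm, miR-378a-5p, had 0.650, below miR-30d-5p and miR-541-3p from outside the family. How many other kept miRNAs reach such r over these libraries is not given here. The miRNAs outside the family, picked by their r in the other set, ranged more widely, with r of −0.058 for miR-101c, −0.33 for miR-101a-3p, 0.18 for miR-339-3p, −0.81 for miR-200c-3p and 0.69 for miR-30d-5p. Of the opposite ones, miR-1983 had 0.21, miR-541-3p 0.79 and miR-1964-3p −0.85.

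Other miRNAs tied to brown fat, the tissue in which the miR-378a locus is known to act, were counted beside the family in d/d against fl/fl MEF. Of 13 kept miRNAs known to promote brown fat, 0 rose and 7 fell, with a median of −0.80, among them miR-30b-5p (−1.47 ± 0.29, limma adjusted p = 0.00154), miR-196a-5p (−1.26 ± 0.11, limma adjusted p = 8.0e-06) and miR-30c-5p (−1.20 ± 0.13, limma adjusted p = 2.8e-05). Of 6 that restrain it, 0 rose and 5 fell, with a median of −0.59, among them miR-106b-5p (−1.04 ± 0.40, limma adjusted p = 0.0446), miR-155-5p (−0.68 ± 0.19, limma adjusted p = 0.0118) and miR-93-5p (−0.67 ± 0.25, limma adjusted p = 0.0377). MiR-106b-5p and miR-93-5p resemble miR-17-5p of the deleted cluster, and their reads may be shared with it. Both lists thus had members that fell and none that rose, where 27.6% of all kept miRNAs fell and the median was 0.02. The lists were chosen with earlier results of these data known, and no test of a list as a set was made. With spike-in scaling, 11 of the 13 promoting miRNAs (median −1.22) and 5 of the 6 restraining ones (median −1.02) fell. Of all kept miRNAs 283 of 665 then fell, with a median of −0.39. With re-centred medians 10 of the 13 fell, where 245 of all 662 kept miRNAs did, with a median of −0.27.

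Other miRNAs of host-gene introns were counted in the same comparison. Of 3 kept from introns of sterol and coenzyme A genes (arms of miR-33, miR-103 and miR-107), 0 rose and 0 fell, with a median of −0.28, though all 3 were called lower with the spike-in scaled table. Of 37 other single miRNAs in introns of protein-coding genes, 9 rose and 16 fell, with a median of −0.50, and the largest changes were in miR-218-5p (−1.90 ± 0.11, limma adjusted p = 6.8e-07), miR-126a-5p (−1.56 ± 0.28, limma adjusted p = 0.000800) and miR-190a-5p (−1.40 ± 0.54, limma adjusted p = 0.0464). Over all kept miRNAs 30.7% rose and 27.6% fell. The spike-in scaled table gave 4 higher and 22 lower of the 37. It gave 147 higher and 283 lower of all 665 kept miRNAs, with a median of −0.39.

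In OV against fl/fl MEF, 2 of the 13 promoting miRNAs rose and 5 fell (median −0.05), with miR-193b-3p at 1.33 ± 0.29 (limma adjusted p = 0.00737), miR-182-5p at −1.13 ± 0.12 (limma adjusted p = 0.000131) and miR-203-3p at 0.65 ± 0.22 (limma adjusted p = 0.0449, but 0.129 with re-centred medians). Of the 6 restraining ones 1 rose, miR-27a-3p at 0.67 ± 0.13 (limma adjusted p = 0.00382), and 0 fell (median −0.32). The sterol and coenzyme A hosts had 0 calls (median −0.08), and of the 37 intronic miRNAs 5 rose and 7 fell (median −0.01), with miR-190a-5p at −1.77 ± 0.54 (limma adjusted p = 0.0325), miR-338-5p at 1.32 ± 0.33 (limma adjusted p = 0.0137) and miR-140-3p at 1.18 ± 0.11 (limma adjusted p = 8.9e-05). The background was 31.3% called, 15.6% higher and 15.7% lower, with a median of −0.07. With spike-in scaling, 2 of the 13 promoting miRNAs were called higher and 1 lower (median 0.08), and 6 of the 37 intronic ones higher and 3 lower (median 0.12). The direction of both medians turned, as did that of the sterol and coenzyme A list (0.06). The median of all kept miRNAs turned with them, from −0.07 to 0.07, with 112 higher and 44 lower of 665.

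Between miR-290~295 and Empty, 2 of the 13 promoting miRNAs rose and 4 fell (median −0.19), with miR-193b-3p at −1.92 ± 0.35 (limma adjusted p = 0.00249), miR-196a-5p at 1.76 ± 0.15 (limma adjusted p = 4.1e-05) and miR-455-3p at −1.44 ± 0.15 (limma adjusted p = 9.7e-05). Of the 6 restraining ones miR-27a-3p rose (0.58 ± 0.15, limma adjusted p = 0.0130, but 0.09 and not called with the spike-in scaled table) and miR-34a-5p fell (−0.90 ± 0.24, limma adjusted p = 0.0156), with a median of 0.24. The sterol and coenzyme A hosts had 0 calls (median 0.31). Of the 37 intronic miRNAs 3 rose and 9 fell (median −0.31), with miR-190a-5p at −2.20 ± 0.41 (limma adjusted p = 0.00281), miR-218-5p at 1.57 ± 0.13 (limma adjusted p = 4.1e-05) and miR-152-3p at −1.19 ± 0.17 (limma adjusted p = 0.000919). Over all kept miRNAs 16.7% rose and 22.3% fell, with a median of 0.02. The spike-in scaled table gave 1 higher and 22 lower of the 37, 1 higher and 8 lower of the 13, and a median of −0.67 for the promoting, −0.25 for the restraining and −0.17 for the sterol and coenzyme A lists. That table moved all kept miRNAs too, with 56 higher and 331 lower of 846 and a median of −0.46.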

How the data were processed

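The members, lists and tests were chosen with earlier results of these data known. Per the labels' protocols, RNA with spike-ins was gel-purified for small RNAs and libraries were made with the NEBNext kit. The authors deposited signal values, which are reads of each mature miRNA over a library's size factor, with and without spike-in scaling for both MEF sets. DESeq2 is named, without a version, per the submitters' processing notes; the sources used here give no aligner, counter, annotation or build. Whole reads were recovered, as 100% of values were whole multiples within 0.001. The tables also hold 33 log2 (rlog) columns deposited by the authors, not used here. OV and fl/fl MEF columns show a group but no replicate number of the labels.

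MiRNAs with a mean of at least 10 were tested by limma 3.58.1 (R 4.3.3) with a trend on log2(normalized count + 1), with p-values adjusted over all kept miRNAs (Benjamini-Hochberg, 0.05), fitted within a set on the tables without spike-in scaling. The fit was tested on simulated data. Alternatives were edgeR 4.0.16 and DESeq2 1.42.0 on recovered reads, other scalings, pseudocounts, minimums and libraries left out. Named miRNAs outside the family were up to 3 per list and comparison with the largest change past the threshold, and the 5 most and 3 least like miR-378a-3p. The lists of brown fat and intronic miRNAs share 3 entries. Intervals cover counting error only.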

Additional observations from a re-analysis of the deposited data

Results flagged for a closer look

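Some members had a B-cell difference opposite in sign to that of every MEF library of the same contrast, and the difference between cell types was not tested, since B cells have 1 library a group. Between d/d and fl/fl B cells the log2 differences were 0.10 for miR-378a-5p, 0.14 for miR-378b and 0.43 for miR-378d, while all 3 d/d MEF libraries were below all fl/fl MEF libraries for each of them. On RPM these B-cell differences were 0.35, 0.40 and 0.68, and that of miR-378d rests on 8 reads in d/d and 5 in fl/fl B cells. As ratios of normalized counts their counting intervals were 0.982 to 1.16, 0.937 to 1.30 and 0.389 to 5.24. Each interval includes no change, and the low d/d MEF level is what chose the members. Between OV and fl/fl B cells miR-378a-5p differed by 0.28, while all 3 OV MEF libraries were below all fl/fl ones, and on RPM this difference was −0.17.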

How the results depend on the processing

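The lower level of the family in d/d MEF kept its direction under every alternative run for each member it kept (a minimum mean of 100 left out miR-378a-5p), and the median member was at −3.14 with the spike-in scaled table and −2.99 with re-centred medians, as was miR-378a-3p, against −2.70, with −2.75 to −2.66 when 1 library was left out. Between miR-290~295 and Empty, miR-378a-3p moved to −0.90 and 4 members were called with the spike-in scaled table, and leaving out 1 library gave −0.63 to −0.30 and 0 to 2 members called, with miR-378a-3p called without E1. Adjusted p for miR-378a-3p ran from 0.00182 to 0.359 over all alternatives. MiR-378a-5p reversed to −0.35 with the spike-in scaled table, −0.28 without E1 and −0.18 without miR-290 2, in a leave-one-out range of −0.28 to 0.45. The log2 ratio of miR-378b to miR-378a-3p ran from −0.048 to 0.11, reversing without E1 (−0.048) and without miR-290 1 (−0.0095). On RPM miR-378a-3p was at 0.24 in d/d and −0.24 in OV B cells. Over all kept miRNAs, 327 calls (140 higher, 187 lower) became 387 (56 and 331) with spike-in scaling and 223 to 381 when 1 library was left out. In d/d against fl/fl MEF the spike-in scaled split was 147 higher and 283 lower, against 203 and 183, and re-centring gave 162 and 245. In OV it was 112 and 44 with spike-in scaling, 83 and 153 with re-centring, against 103 and 104. List members called were 33 with spike-in scaling, against 20, and 14 to 24 by leave-one-out for miR-290~295, 28 to 39 for d/d, against 35, and 9 to 21 for OV, against 19 (9 without FL3, 10 without FL4 and 11 without FL5). In OV, miR-378a-3p ranged from −0.73 to −0.05.

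In the miR-290~295 set, deviations from the group mean correlated at 0.28, 0.01 and −0.26 between libraries of the same replicate number. Not every library correlated best with its own number. With 3 libraries a group these values cannot settle whether the numbers pair the libraries. A replicate block there gave 298 calls, 0 members called and an adjusted p of 0.0797 by limma for miR-378a-3p. No paired analysis was possible because the OV and fl/fl columns of the miR-17~92 MEF set carry no replicate number of the labels, and because B cells have 1 library a group. Depth limits miR-378a-5p in MEF (7 reads at the lowest) and miR-378d in B cells (1 read). Of the values under alternatives of the members other than miR-378a-3p and of the list medians, 31 moved, 3 reversed and 4 newly passed, and the cause of the shifts was not tested. The other 343 include small differences that changed sign, such as miR-378b and miR-378d in OV without OV4.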
